A study of Rattus norvegicus with 22 samples.

Results

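The genes described here encode blood coagulation factors and serpins. They were chosen by gene symbol: every probe set annotated with a single symbol that begins with Serpin, or that is F2, F3, F5, F7, F8, F9, F10, F11, F12, F13a1, F13b, Fga, Fgb, Fgg, Plg, Proc, Pros1, Klkb1, Kng1, Vwf or Tfpi. This gave 51 of 15866 probe sets, for 42 of 10411 genes. Of these, 28 were serpin genes with 32 probe sets, and 14 of the 21 other names were measured, with 19 probe sets. F7, F8, F9, F11, F12, F13b and Kng1 were not analysed here. A gene with several probe sets is represented below by the probe set with the highest mean over all arrays. Its other probe sets are given in some, not all, of the comparisons where their call or sign differed, so silence on them does not mean agreement.

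RNA from Wistar rats was hybridised to 22 single-colour expression arrays, 1 per sample. Pregnant rats received vehicle, the calcium sensitiser EMD 82571 (MSC1096199) at 50 or 150 mg/kg/day (EMD50 and EMD150) or retinoic acid (RA) at 12 mg/kg/day. Dosing began on gestational day 6 and ended on day 11 or 17, and the labels do not settle which end belongs to which samples. Embryo liver, embryo bone and maternal liver of gestational day 20 had 1 array for each of the 4 treatments. Whole embryos and maternal liver of day 12 had 5 arrays each, since RA has 2 samples there, coded RA5 and RA56 without explanation. All day 20 RA samples carry the code RA56. Whether samples shared a dam or litter, or were pooled, is not stated. The p-values below therefore measure only the spread between these samples, which may be technical.

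Coagulation factors circulate mostly as inactive precursors made by hepatocytes. A protease cascade ends in thrombin, which cuts fibrinogen into fibrin, and plasmin dissolves the clot. Serpins are a family of proteins that mostly trap proteases irreversibly, and several hold the coagulation and plasmin proteases in check. Others carry hormones or help to fold collagen, and those of clade B mostly act inside cells. In rats the fetal liver is also a site of blood cell formation until around birth.

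Promoter sequences are shown for 2 sets of genes that the liver results turn on: the fibrinogen genes, which did not differ past the threshold between fetal and maternal liver on their brightest probe sets, and clade A3 serpins, which were much lower in the fetus. They come from RefSeq (rat assembly GRCr8), which served only for sequence, names and gene order, since no build is named for the arrays. All 42 genes matched RefSeq by symbol, and 34 had a promoter of 300 bases, from 250 before to 50 after the gene start. F3, Serpina10, Serpina3c, Serpina6, Serpinb12, Serpind1, Serping1 and Vwf had none and are not in the promoter counts. In the fibrinogen promoters, capitals mark matches on either strand to an HNF1-type site (GTTAAT), a C/EBP-type site (TTGCNNAA) and an IL-6 response type II site (CTGGGAA). Fgg, Fga and Fgb lie next to each other in this order, with no other protein-coding gene between them. Fgg is at chr2:170652833-170653132 on the plus strand, Fga at chr2:170671919-170672218 on the plus strand and Fgb at chr2:170700826-170701125 on the minus strand, each printed 5′ to 3′ along the gene.
Fgg: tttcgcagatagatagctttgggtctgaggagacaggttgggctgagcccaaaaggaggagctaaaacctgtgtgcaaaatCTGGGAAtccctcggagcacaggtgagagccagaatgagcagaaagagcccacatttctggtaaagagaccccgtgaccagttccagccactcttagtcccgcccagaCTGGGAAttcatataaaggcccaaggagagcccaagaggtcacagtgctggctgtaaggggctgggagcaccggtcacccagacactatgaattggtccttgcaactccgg
Fga: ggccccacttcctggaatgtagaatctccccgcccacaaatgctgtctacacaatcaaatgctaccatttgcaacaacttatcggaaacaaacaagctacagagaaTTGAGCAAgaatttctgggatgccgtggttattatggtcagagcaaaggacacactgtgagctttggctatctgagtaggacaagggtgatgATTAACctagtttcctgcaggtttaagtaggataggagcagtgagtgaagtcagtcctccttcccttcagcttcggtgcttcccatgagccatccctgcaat
Fgb: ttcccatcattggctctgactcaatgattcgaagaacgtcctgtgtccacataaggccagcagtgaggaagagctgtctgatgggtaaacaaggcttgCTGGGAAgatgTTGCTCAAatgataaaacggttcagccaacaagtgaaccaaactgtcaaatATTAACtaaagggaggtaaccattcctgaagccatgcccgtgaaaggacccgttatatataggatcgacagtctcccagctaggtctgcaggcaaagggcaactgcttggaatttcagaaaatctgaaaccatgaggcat

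The HNF1-type match was present in the Fga and Fgb windows, the C/EBP-type match in the same 2 windows, and the IL-6 type match in those of Fgb and Fgg. Of the 34 member promoters, 8 held the HNF1-type letters (23.5%), against 7.45% of all 33469 RefSeq promoters. These were F2, Fga, Fgb, Plg, Proc, Serpina4, Serpina7 and Tfpi. The C/EBP-type letters were in 20.6% of member promoters and in 10.6% of all, and the IL-6 type letters in 17.6% and 11.3%. A STAT-type match (TTCNNNGAA, not capitalised) was in 23.5% against 8.87%, and in Serpina3n it overlapped the IL-6 type match. TATAAA was in 17.6% against 14.2%. These matches describe letters and were not tested as binding sites.

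For the clade A3 serpins, capitals mark the longest stretch that Serpina3l and Serpina3n share, which is 48 bases long. Serpina3l is at chr6:129062956-129063255 and Serpina3n at chr6:129088142-129088441, both on the plus strand.
Serpina3l: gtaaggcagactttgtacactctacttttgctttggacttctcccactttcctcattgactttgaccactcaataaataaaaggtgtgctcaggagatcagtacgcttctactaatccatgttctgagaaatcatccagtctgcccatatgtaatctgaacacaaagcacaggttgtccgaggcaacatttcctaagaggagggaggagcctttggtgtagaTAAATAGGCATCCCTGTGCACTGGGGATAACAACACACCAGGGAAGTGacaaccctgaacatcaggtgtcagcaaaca
Serpina3n: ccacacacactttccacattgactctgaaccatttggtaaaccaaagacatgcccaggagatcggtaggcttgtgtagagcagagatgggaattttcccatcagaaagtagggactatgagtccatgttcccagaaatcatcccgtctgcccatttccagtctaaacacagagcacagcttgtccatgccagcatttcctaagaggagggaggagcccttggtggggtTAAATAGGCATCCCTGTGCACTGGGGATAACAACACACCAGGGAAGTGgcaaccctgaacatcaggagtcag

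Aligned without gaps at that stretch, 65.3% of 294 bases were identical. Serpina3m and Serpina3n shared a stretch of 45 bases and 65.0% of 294. Among all other pairs of member promoters that did not join A3 genes, the longest shared stretch was 14 bases. The A3 genes are close copies of each other, so their probes may take up RNA of neighbouring copies, which was not tested, and values for any single A3 gene are uncertain to that extent.

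**Figure D1:**
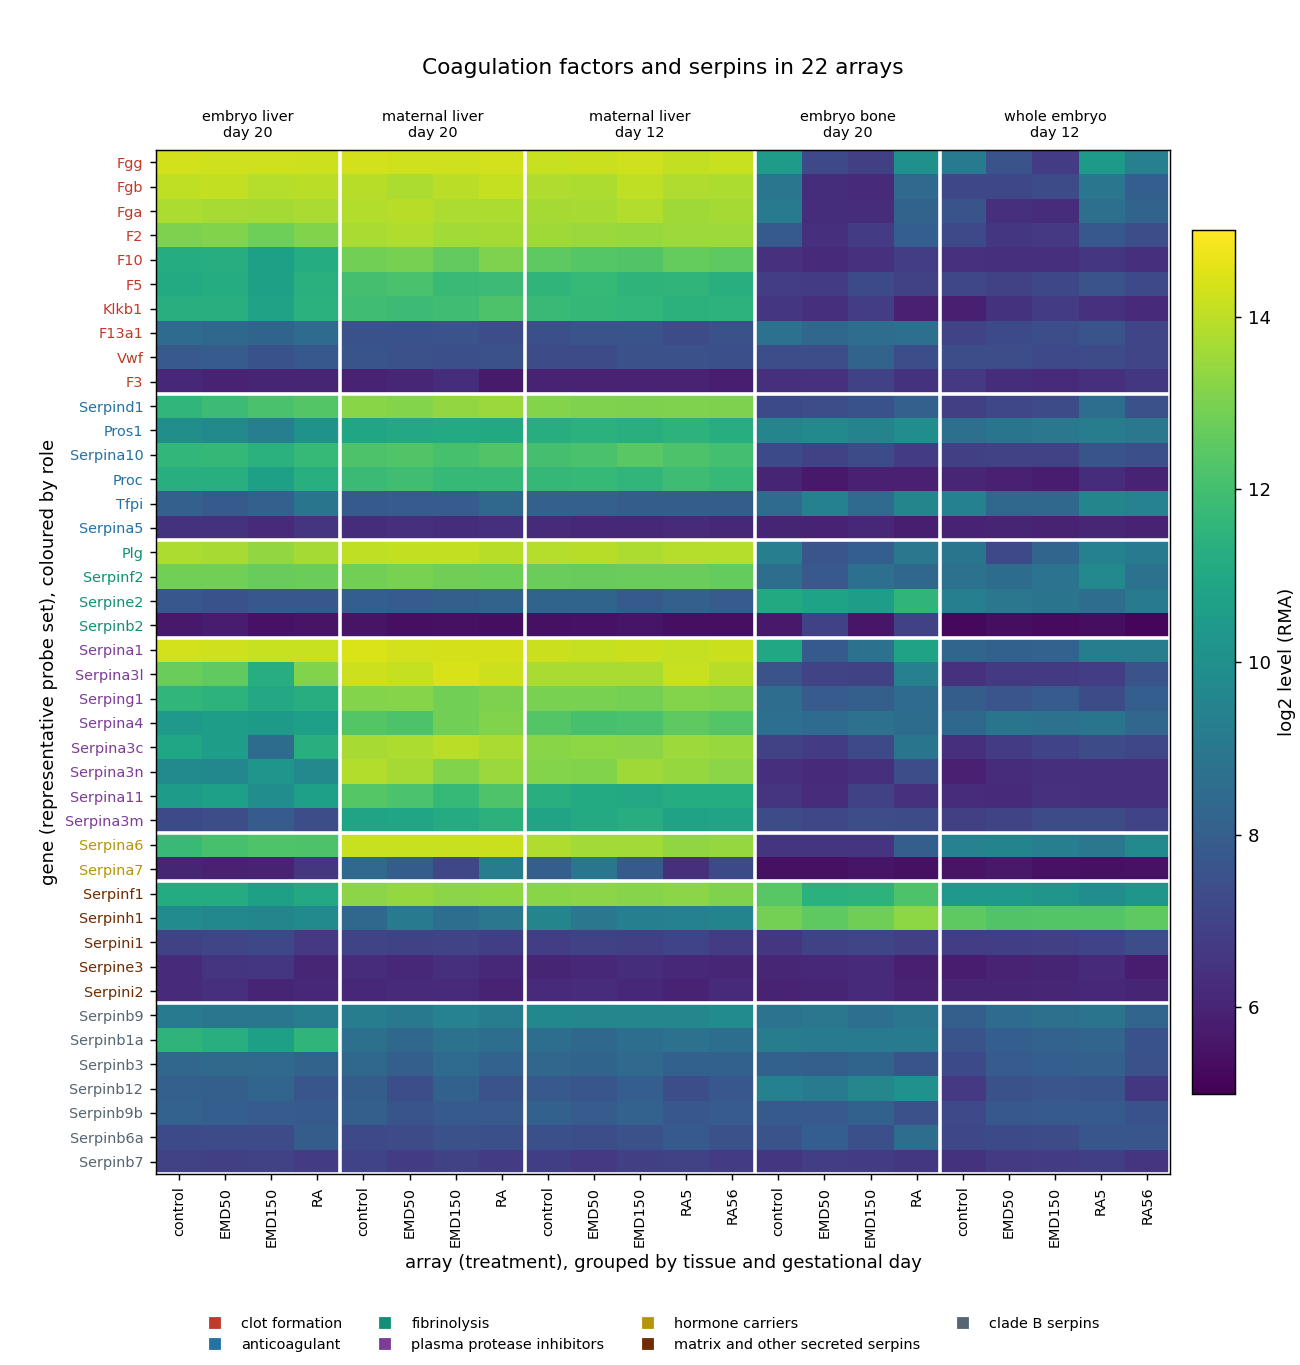
Log2 levels of the 42 genes (lines of the map, coloured by role) in each of the 22 arrays, grouped by tissue and gestational day; the colour scale runs from 5 to 15. Fibrinogen chains, F2, Plg and Serpina1 are bright in all 13 liver arrays, clade A3 serpins are brighter in maternal than in embryo liver, and Serpinh1 is brightest in bone and whole embryo.

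The tissue labels were checked against markers. Albumin (Alb) was at 14.93 to 15.22 in all 13 liver arrays, and alpha-fetoprotein (Afp) was at 14.63 to 14.67 in embryo liver against 8.50 to 9.27 in maternal liver of day 20. Collagen Col1a1 was at 14.55 to 14.68 in bone. A group of 5 arrays stood apart and each result that rests on them was also computed without them. In the control bone Alb was at 13.60 and Afp at 12.34, and in the RA bone Alb was at 13.60 with Afp at 7.58. In the EMD50 bone the 3′ minus 5′ difference of the Gapdh control probes was 2.72, against 0.57 to 0.86 on all other arrays. In the RA56 whole embryo Alb was at 12.00, and in the RA maternal liver of day 20 the muscle actin Acta1 was at 12.83, against 6.48 to 6.85 in the other maternal livers of that day.

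Embryo liver was compared with maternal liver of day 20 first. The fibrinogen chains, Serpina1 and Serpinf2 differed by at most 0.12 in size on the log2 scale, on their brightest probe sets, and did not pass the test. Embryo liver had less F10, F5 and F2, less of the anticoagulants Proc, Pros1 and Serpind1, and several-fold less of the clade A3 serpins and of the hormone carriers Serpina6 and Serpina7. Serpinb1a, F13a1 and Serpinh1 were higher in the embryo. In limma's model of the 13 liver arrays, 29 of 51 member probe sets passed an adjusted p of 0.05 (56.9%), against 42.9% of all probe sets. Higher in embryo liver were 7 (13.7%), against 23.4% of all, and lower were 22 (43.1%), against 19.6% of all. By gene, 25 of 42 passed, 5 higher and 20 lower. The median log2 difference was -0.15 over the representative probe sets of the 42 genes and 0.05 over all probe sets. In bulk tissue, fewer cells of a type and less RNA per cell cannot be told apart. The measured erythroid markers (Hbb and Alas2) averaged 14.12 to 14.33 in embryo liver and 10.51 to 11.65 in maternal liver, and the 6 hepatocyte markers 13.27 to 13.35 and 13.80 to 13.90. Both erythroid markers were called higher and 3 of the 6 hepatocyte markers lower. All 5 fetal hepatocyte markers were called higher (median 5.31) and 3 of 6 adult hepatocyte markers lower (median -2.26). Their part in these differences was not tested.

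Among the 10 genes of clot formation, 4 were lower in embryo liver, 2 were higher and 4 did not pass, with a median of -0.07. These counts by role, and those that follow for this comparison, stand beside 19.6% of all probe sets lower and 23.4% higher. Fgg, the gamma chain of fibrinogen, was at 14.30, 14.27, 14.28 and 14.23 in embryo liver (control, EMD50, EMD150 and RA, the order used throughout) and at 14.32, 14.30, 14.28 and 14.30 in maternal liver. The groups overlapped, and the log2 difference was -0.03 ± 0.08 (SE, adjusted p = 0.814). All these values lie near the top of the arrays' range, where the highest probe set was at 14.93 to 15.22, and whether a difference is compressed there was not tested.

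Fga, the alpha chain, was at 13.76, 13.70, 13.65 and 13.73 in embryo liver and 13.83, 13.94, 13.76 and 13.75 in maternal liver, a difference of -0.11 ± 0.09 (adjusted p = 0.356). A further Fga probe set was higher in embryo liver by 0.43 ± 0.08 (adjusted p = 0.00131), so the 2 Fga probe sets disagree. Fgb, the beta chain, was at 14.05, 14.06, 13.87 and 13.95 against 13.92, 13.77, 13.96 and 14.14, a difference of 0.04 ± 0.11 (adjusted p = 0.817). The 2 other Fgb probe sets were dim, from 5.48 to 7.50 over all arrays, and 1 of them passed with a difference of -0.25 ± 0.09. No chain of fibrinogen passed on its brightest probe set, and the other probe sets pointed both ways.

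F10, the factor whose active form cuts prothrombin, was at 11.18, 11.22, 10.70 and 11.19 in embryo liver and at 12.88, 12.95, 12.59 and 13.06 in maternal liver. The groups were far apart, by -1.80 ± 0.09 or 3.47-fold (adjusted p = 8.76e-09). F5, the cofactor of active factor X, was at 11.12, 11.19, 10.70 and 11.35 against 12.05, 12.14, 11.78 and 11.87, without overlap. F5 was lower by a log2 difference of -0.87 ± 0.12 (adjusted p = 7.07e-05).

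F2, prothrombin, was at 13.01, 13.12, 12.79 and 13.10 against 13.72, 13.82, 13.62 and 13.66, a difference of -0.70 ± 0.09 (adjusted p = 3.32e-05). Klkb1, plasma prekallikrein of the contact system, was at 11.28, 11.28, 10.77 and 11.39 against 11.93, 11.87, 11.93 and 12.21. Its difference was -0.80 ± 0.13 (adjusted p = 0.000398). In F2 and Klkb1, too, every embryo liver lay below every maternal liver. When the arrays were quantile normalized again, the difference shrank to -0.49 for F5 and -0.39 for Klkb1, and both still passed.

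F13a1, the subunit of factor XIII that cross-links fibrin, went the other way. It was at 8.51, 8.36, 8.24 and 8.51 in embryo liver and 7.53, 7.51, 7.57 and 7.36 in maternal liver, higher by 0.91 ± 0.09 (adjusted p = 5.37e-06). Its other probe set gave 1.13 ± 0.13. Megakaryocytes and macrophages are known sources of F13a1. The 4 measured megakaryocyte and platelet markers were all higher in embryo liver (means 8.71 to 9.03 against 7.65 to 7.82), Pf4 among them at 11.22 to 11.75 against 8.20 to 8.49. The 3 measured macrophage markers were all lower (means 9.26 to 9.71 against 10.36 to 10.80). The part of either in the F13a1 difference was not tested.

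Vwf, the platelet-binding carrier of factor VIII, was at 7.80, 7.92, 7.54 and 7.76 against 7.59, 7.49, 7.44 and 7.46, higher by 0.26 ± 0.09 (adjusted p = 0.0294). This call was lost without the embryo liver arrays of control, EMD50 or RA or the maternal liver arrays of EMD50, EMD150 or RA, with differences of 0.19 to 0.26 and adjusted p of 0.0541 to 0.124. It was also lost after quantile normalization (0.23, adjusted p = 0.0627), with only the compared groups in the fit (adjusted p = 0.0517) and with all 22 arrays (adjusted p = 0.179, the highest). In all it was lost in 10 of 20 alternatives. These enter the removal of the RA maternal liver of day 20 both as its own setting and among the single arrays. F3, tissue factor, the starter of the cascade, was dim, at 5.96 to 6.13 against 5.72 to 6.32, with a difference of 0.01 ± 0.09 (adjusted p = 0.935).

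Of the 6 anticoagulant genes, 4 were lower in embryo liver (against 19.6% of all probe sets) and none was higher (against 23.4%). Serpind1, heparin cofactor II, which inhibits thrombin, was at 11.58, 11.84, 12.13 and 12.31 against 13.22, 13.15, 13.39 and 13.51, lower by a log2 difference of -1.35 ± 0.12 (adjusted p = 2.77e-06). Pros1, protein S, the cofactor of active protein C, was at 9.95, 9.77, 9.29 and 10.10 against 10.89, 11.03, 11.11 and 11.09, with -1.25 ± 0.14 (adjusted p = 1.28e-05). For both genes the groups did not overlap.

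Proc, protein C, was at 11.25, 11.32, 10.69 and 11.32 against 11.82, 11.95, 11.70 and 11.68, with -0.64 ± 0.11 (adjusted p = 0.000547). Serpina10, which inhibits active factor X together with protein Z, was at 11.62, 11.68, 11.38 and 11.71 against 12.22, 12.28, 12.07 and 12.30, with -0.62 ± 0.12 (adjusted p = 0.00114). Quantile normalization moved both to -0.27, still past the threshold. Tfpi, the inhibitor of the tissue factor pathway, gave 0.21 ± 0.16 (adjusted p = 0.311), and its further probe set -0.15 ± 0.07 (adjusted p = 0.105). Serpina5, protein C inhibitor, was dim, at 6.24 to 6.51 against 6.29 to 6.38, and did not pass (0.10 ± 0.06, adjusted p = 0.190).

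Of the 4 fibrinolysis genes, 2 were lower in embryo liver and 1 was higher, with a median of -0.21. Plg, plasminogen, was at 13.78, 13.70, 13.37 and 13.64 in embryo liver and 14.05, 14.09, 14.07 and 13.91 in maternal liver, without overlap, a log2 difference of -0.41 ± 0.09 (adjusted p = 0.00393). It was -0.24 after quantile normalization, still past the threshold. The call was lost when all 22 arrays shared 1 estimate of the spread, where the adjusted p was 0.326, within a range of 0.00118 to 0.326 over 20 alternatives. Serpinf2, the fast inhibitor of plasmin, did not pass, at 12.87, 12.88, 12.68 and 12.77 against 12.85, 12.98, 12.81 and 12.80 (-0.06 ± 0.08, adjusted p = 0.588).

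Serpine2, an inhibitor of thrombin and plasminogen activators at cell surfaces, gave -0.36 ± 0.11 (adjusted p = 0.0173). Without the embryo livers of control or EMD50, or the maternal livers of EMD150 or RA, it was -0.30 to -0.35 with adjusted p of 0.0504 to 0.0726. Serpinb2, an inhibitor of urokinase, was at 5.51 to 5.81 against 5.37 to 5.52, among the dimmest probe sets, and passed at 0.20 ± 0.06 (adjusted p = 0.0119). Without the EMD50 array of embryo or of maternal liver it was 0.15 or 0.16, with an adjusted p of 0.0534 or 0.0544.

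**Figure D2:**
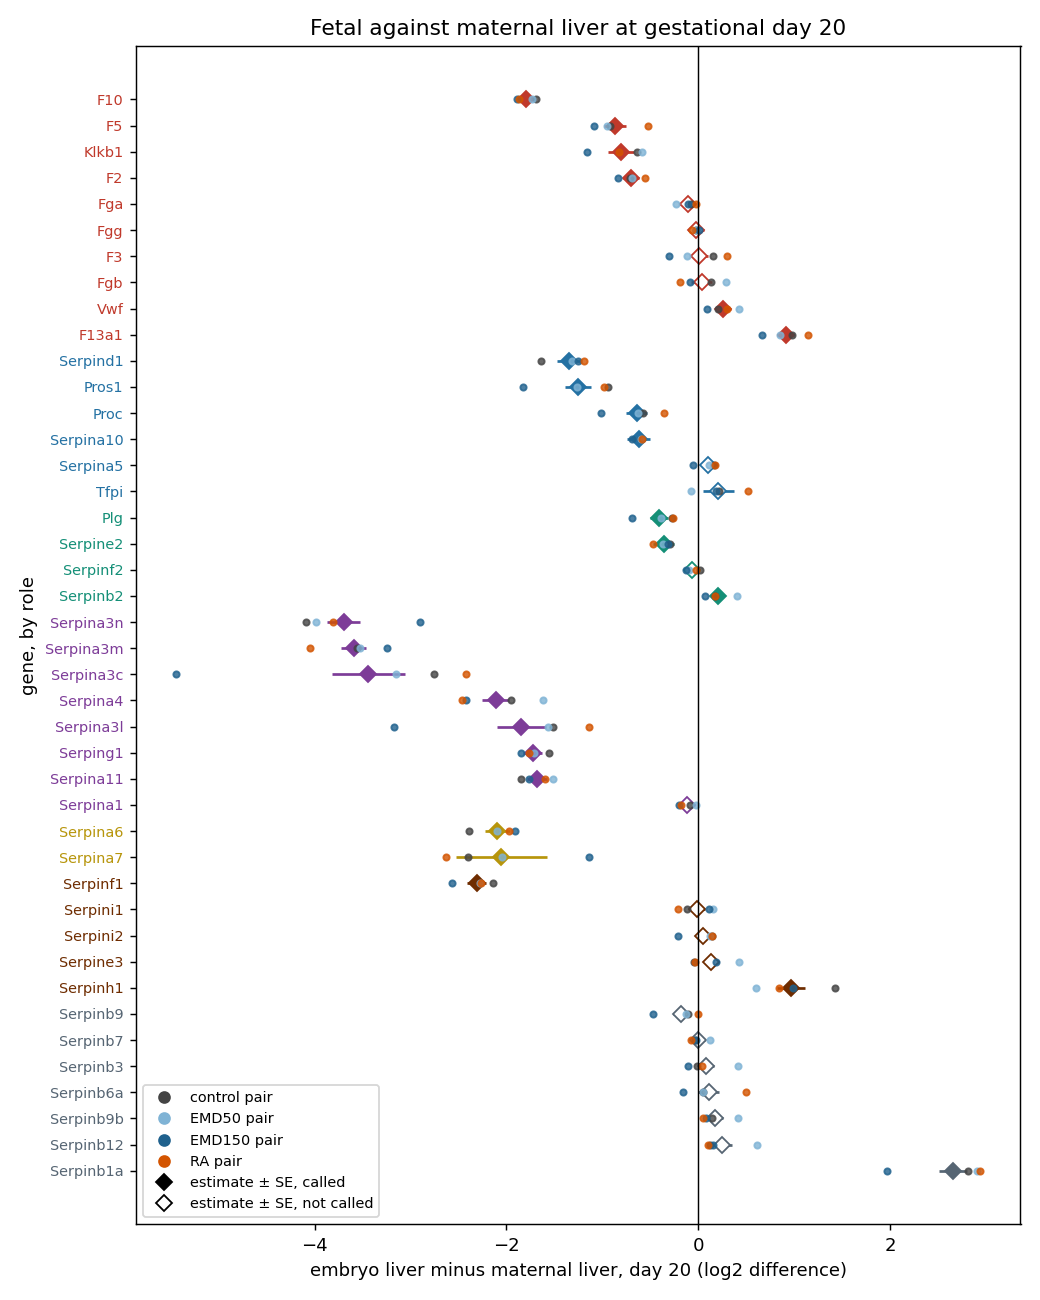
Embryo liver minus maternal liver at day 20 for each of the 42 genes, as log2 difference: diamonds are the estimates of the liver model with their SE (filled when the adjusted p was under 0.05), and small points are the differences within each treatment. Clade A3 serpins lie at the left, from -1.85 to -3.70, fibrinogen chains at 0 and Serpinb1a at 2.66.

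Of the 8 plasma protease inhibitors, 7 were lower in embryo liver, against 19.6% of all probe sets, with a median of -1.98. Serpina3n, a rodent relative of antichymotrypsin, was at 9.75, 9.67, 10.21 and 9.69 in embryo liver and at 13.84, 13.65, 13.10 and 13.50 in maternal liver. That was 9.83 ± 0.25 against 13.53 ± 0.31 (mean ± SD, n = 4), or 12.96-fold lower in the embryo (-3.70 ± 0.17, adjusted p = 6.54e-09). Serpina3m was at 7.26, 7.37, 7.92 and 7.38 against 10.82, 10.90, 11.16 and 11.43, or 12.1-fold lower (adjusted p = 7.68e-10), and its embryo liver values were close to those in bone, 7.12 to 7.38.

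Serpina3c was at 10.92, 10.60, 8.53 and 11.30 against 13.67, 13.75, 13.97 and 13.72, with -3.44 ± 0.38 (adjusted p = 1.35e-05). Serpina3l was at 12.73, 12.56, 11.21 and 13.10 against 14.24, 14.13, 14.38 and 14.24, with -1.85 ± 0.26 (adjusted p = 8.65e-05). In both, the EMD150 embryo liver was the lowest of the embryo livers, whereas in Serpina3n and Serpina3m it was the highest. No group overlapped its counterpart in any of the 4 genes.

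Serpina4, kallistatin, was at 10.36, 10.58, 10.47 and 10.66 against 12.31, 12.19, 12.88 and 13.12 (-2.11 ± 0.14, adjusted p = 1.87e-07). Serping1, the inhibitor of complement C1 and of kallikrein, was at 11.59, 11.45, 11.03 and 11.24 against 13.15, 13.17, 12.88 and 13.01 (-1.72 ± 0.10, adjusted p = 3.56e-08). Serpina11 was at 10.53, 10.65, 9.92 and 10.65 against 12.38, 12.15, 11.69 and 12.25 (-1.68 ± 0.11, adjusted p = 1.08e-07). Serpina1, alpha-1-antitrypsin, was the exception, at 14.34, 14.30, 14.17 and 14.17 against 14.42, 14.32, 14.37 and 14.35 (-0.12 ± 0.08, adjusted p = 0.263), again close to the top of the range.

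Both hormone carriers were lower in embryo liver. Serpina6, corticosteroid-binding globulin, was at 11.78, 12.07, 12.24 and 12.22 against 14.18, 14.17, 14.16 and 14.19, or 4.27-fold lower (-2.09 ± 0.13, adjusted p = 6.21e-08). Serpina7, thyroxine-binding globulin, was at 6.03, 5.92, 6.00 and 6.57 against 8.43, 7.97, 7.14 and 9.20, with -2.05 ± 0.47 (adjusted p = 0.00397). Its embryo liver values were low but all lay above those of bone and whole embryo, 5.43 to 5.67, while its maternal values varied widely.

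Among the secreted serpins with other tasks, Serpinf1, pigment epithelium-derived factor, was at 11.13, 11.16, 10.68 and 11.02 against 13.27, 13.43, 13.25 and 13.29. It was 4.97-fold lower in embryo liver (-2.31 ± 0.10, adjusted p = 2.10e-09). Serpinh1, the collagen chaperone HSP47, was at 9.81, 9.68, 9.60 and 9.79 against 8.39, 9.07, 8.61 and 8.95, higher by 0.97 ± 0.15 (adjusted p = 0.000215). Its further probe set stayed at 6.49 to 6.65 in both tissues and did not pass. Serpini1 (neuroserpin), Serpini2 and Serpine3 were dim and did not pass.

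Among the 8 clade B serpins, Serpinb1a and the dim Serpinb2, given above, passed on their representative probe sets. Serpinb1a inhibits elastase and other granule proteases of neutrophils. It was at 11.49, 11.29, 10.69 and 11.55 in embryo liver and 8.67, 8.38, 8.73 and 8.61 in maternal liver, or 6.30-fold higher in the embryo (2.66 ± 0.15, adjusted p = 2.39e-08). The 2 measured mast cell and granulocyte markers were also higher there (means 7.80 to 8.26 against 7.53 to 7.67), and their part was not tested. Serpinb9, the granzyme B inhibitor, did not pass (-0.18 ± 0.09, adjusted p = 0.136), though its further probe set did (-0.60 ± 0.11, adjusted p = 0.001). Serpinb12, Serpinb3, Serpinb6a, Serpinb7 and Serpinb9b did not pass, with differences of at most 0.25 in size.

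Neighbouring genes differed in size of change. In RefSeq order on chromosome 6, Serpina10 and Serpina6 (-0.62 and -2.09) are followed, after 4 other genes, by Serpina1 and Serpina11 (-0.12 and -1.68). Then come Serpina4 and Serpina5 (-2.11 and 0.10) and the A3 genes Serpina3m, Serpina3c, Serpina3l and Serpina3n (-3.59, -3.44, -1.85 and -3.70). Serpinf1 and Serpinf2 are adjacent on chromosome 10 with -2.31 and -0.06. Serpinb9b, Serpinb9 and Serpinb1a lie close together on chromosome 17 with 0.17, -0.18 and 2.66.

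**Figure D3:**
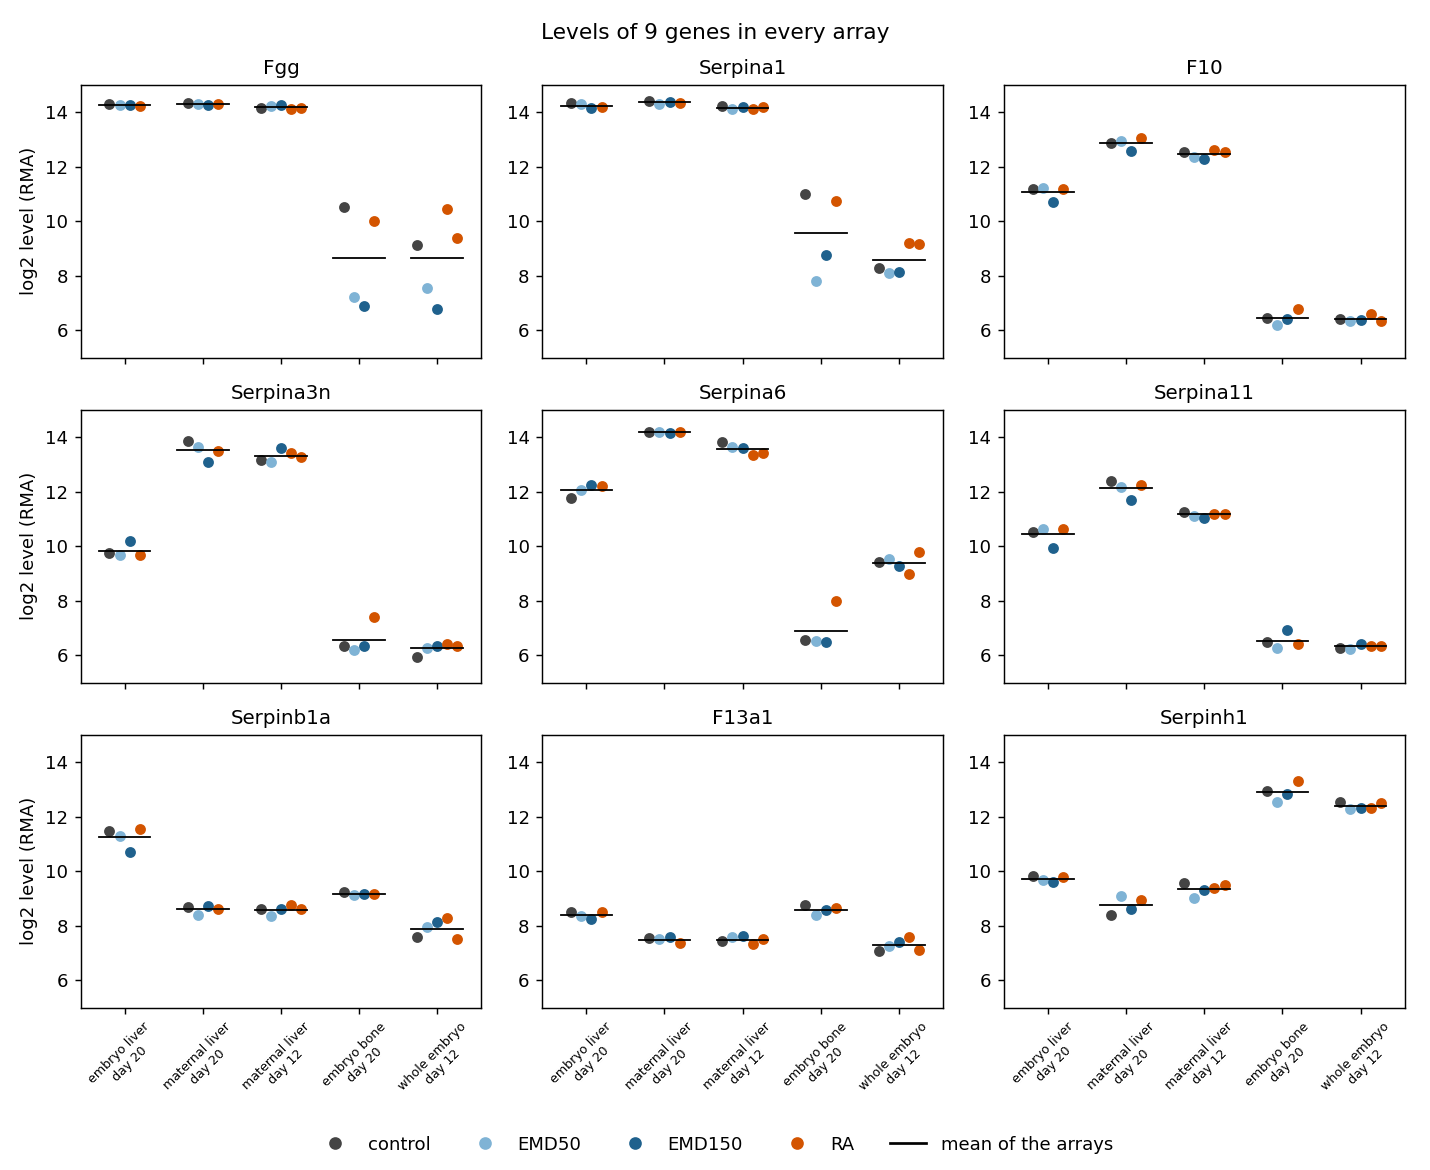
Log2 level of 9 genes in every array by tissue and day; points are arrays coloured by treatment and bars are means of the 4 or 5 arrays. Fgg and Serpina1 lie close together across the livers, F10, Serpina3n, Serpina6 and Serpina11 are lower in embryo liver, Serpinb1a and F13a1 are higher there, and Serpinh1 is highest in bone and whole embryo.

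Other genes around the pathway were followed from a list of 55, of which 45 were measured. In embryo against maternal liver 32 of 45 passed, 7 higher and 25 lower, with a median of -0.33, where 42.9% of all probe sets passed, 23.4% higher and 19.6% lower. All 6 genes listed under vitamin K cycle and factor secretion were lower, namely Vkorc1, Ggcx, Nqo1, Lman1, Mcfd2 and Tmem59. Vkorc1, which recycles vitamin K, gave -1.22 ± 0.11. Ggcx, which carboxylates F2, F10, Proc and Pros1, gave -1.01 ± 0.09. Of 10 liver transcription factors 9 were lower, for example Hnf4a (-1.47 ± 0.12) and Onecut1 (-2.06 ± 0.20). The largest differences down were in the protease inhibitors Mug1 (-5.56 ± 0.21) and Itih4 (-2.66 ± 0.09) and in Agt (-2.12 ± 0.19), angiotensinogen, itself of the serpin family. Those up were in Anxa2, which binds plasminogen (3.43 ± 0.14), the protease inhibitor A2m (1.78 ± 0.58) and the thrombin receptor F2r (1.47 ± 0.12).

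Between days 12 and 20 of pregnancy, Serpina11, Serpina6, F5 and F10 rose in maternal liver and Serpinb9 and Serpinh1 fell. In the same liver model, 8 of 51 probe sets passed (15.7%), against 7.22% of all. Higher on day 20 were 5 (9.80%), against 3.23% of all, and lower were 3 (5.88%), against 3.99% of all. By gene, 6 of 42 passed, 4 higher and 2 lower. Day and the length of dosing may move together here and cannot be told apart. Without the control maternal liver of day 20 only 3 probe sets passed, and without the control or the RA56 maternal liver of day 12 it was 5.

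Serpina11 was at 11.27, 11.13, 11.05, 11.20 and 11.19 on day 12 (control, EMD50, EMD150, RA5 and RA56, the order used for day 12) and at 12.38, 12.15, 11.69 and 12.25 on day 20. All day 20 livers were higher, by 0.97 ± 0.10 or 1.96-fold (adjusted p = 0.000408). Serpina6 was at 13.81, 13.63, 13.61, 13.33 and 13.42 on day 12 and 14.16 to 14.19 on day 20, higher by 0.60 ± 0.12 (adjusted p = 0.0132). Without the control maternal liver of day 20 its difference was 0.59 with an adjusted p of 0.0556, within a range of 0.00788 to 0.152 over 20 alternatives.

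F10 was at 12.53, 12.37, 12.27, 12.62 and 12.53 on day 12 and 12.59 to 13.06 on day 20, higher by 0.43 ± 0.08 (adjusted p = 0.0106), with a slight overlap of the groups. F5 was at 11.53, 11.68, 11.51, 11.53 and 11.28 on day 12 and 11.78 to 12.14 on day 20, higher by 0.45 ± 0.11 (adjusted p = 0.0323). The F5 call was lost in 10 of 20 alternatives, with differences of 0.40 to 0.46 and adjusted p of 0.0508 to 0.113. The arrays whose removal lost it were the control and EMD50 embryo livers, the control, EMD50 and EMD150 maternal livers of day 20, and the control, EMD50, RA5 and RA56 maternal livers of day 12. F10 and Serpina11 passed in all 20.

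Serpinb9 fell from 9.65, 9.63, 9.62, 9.62 and 9.81 on day 12 to 9.20, 9.05, 9.41 and 9.22 on day 20, by a log2 difference of -0.43 ± 0.09 (adjusted p = 0.0125). Its further probe set gave -0.78 ± 0.11 (adjusted p = 0.00181). Without the control maternal liver of day 20 the first-named value was -0.42 with an adjusted p of 0.0566, within 0.00733 to 0.0683 over 20 alternatives. Serpinh1 was at 9.57, 9.0025, 9.30, 9.39 and 9.50 on day 12 and 8.39, 9.07, 8.61 and 8.95 on day 20, with overlap, lower by -0.57 ± 0.14 (adjusted p = 0.0330). Its call was lost without the control, EMD150 or RA maternal liver of day 20, the control, EMD150 or RA56 maternal liver of day 12, or the EMD50 embryo liver. It was also lost with only the compared groups in the fit (adjusted p = 0.081). In all it was lost in 9 of 20 alternatives, counting the removal of the RA maternal liver of day 20 under both its settings. The differences were then -0.40 to -0.61, with adjusted p of 0.0504 to 0.125. The dim further Serpinh1 probe set was flat, at -0.06, -0.07, 0.05 and 0.01 within control, EMD50, EMD150 and RA.

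Fibrinogen, F2, Plg, Proc and Serpina1 did not pass between the days, with differences of 0.10 to 0.20. A dim Fgb probe set passed with 0.33 ± 0.09. Serpina7 was at 8.02, 8.93, 7.83, 6.40 and 7.26 on day 12 and 8.43, 7.97, 7.14 and 9.20 on day 20, wide and overlapping, with 0.48 ± 0.45 (adjusted p = 0.599). Of the 45 pathway genes 6 passed, 4 higher and 2 lower, where 7.22% of all probe sets passed, 3.23% higher and 3.99% lower. The protease inhibitor A2m rose most (4.04 ± 0.56, adjusted p = 0.00173), from 7.54 to 7.89 in all day 12 livers but the EMD150 one at 11.21, to 12.06 to 13.07. Foxa3 (1.16 ± 0.08), Ggcx (0.62 ± 0.09) and Vkorc1 (0.55 ± 0.10) were also higher, and Nqo1 (-0.50 ± 0.12) and Anxa2 (-0.50 ± 0.13) lower.

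Outside the liver, most liver-made factors were far lower. Serpinh1 was higher by 3.18 in bone and 3.04 in whole embryo, and Serpine2 was higher by 3.32 in bone and 0.93 in whole embryo. In embryo bone against embryo liver, in limma's model of all 22 arrays, 37 of 51 probe sets passed (72.5%), against 55.2% of all. Higher in bone were 11 (21.6%), against 25.6% of all, and lower were 26 (51.0%), against 29.6% of all. By gene, 31 of 42 passed, 8 higher and 23 lower. Without the 5 arrays that stood apart, which leaves the EMD150 bone alone and assumes that it varies like the other groups, 29 probe sets passed.

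Serpinh1 was at 12.93, 12.53, 12.83 and 13.30 in bone, all above the 9.60 to 9.81 of embryo liver (3.18 ± 0.15, 9.04-fold, adjusted p = 9.32e-13). Its dim further probe set differed by only 0.01, 0.16, 0.25 and 0.40 within control, EMD50, EMD150 and RA. Serpine2 was at 11.06, 10.79, 10.56 and 11.55 in bone against 7.53 to 7.73 in embryo liver (3.32 ± 0.17, 9.97-fold, adjusted p = 2.61e-12). Serpinb12 was at 9.38, 9.17, 9.64 and 10.06 against 7.66 to 8.25 (1.56 ± 0.22, adjusted p = 7.39e-06). The 5 measured epidermis markers averaged 10.87 to 11.16 in the bone samples and 7.70 to 8.37 in embryo liver, and their part in the Serpinb12 difference was not tested.

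Serpinf1 was at 12.41, 11.39, 11.45 and 12.21 in bone, above the 10.68 to 11.16 of embryo liver (0.87 ± 0.17, adjusted p = 0.000286), and by 0.56 without the 5 arrays (adjusted p = 0.0419, the highest of 28 alternatives, from 6.18e-08). Tfpi was higher by 0.79 ± 0.23, F3 by 0.51 ± 0.12 and Serpinb6a by 0.43 ± 0.14, with adjusted p of 0.00689, 0.00155 and 0.0119. The further Tfpi probe set differed by -0.28, -0.15, -0.0015 and 0.06 within control, EMD50, EMD150 and RA. Serpinb2 was at 6.98 and 6.94 in the EMD50 and RA bones and at 5.68 and 5.62 in the control and EMD150 bones, as dim as in liver. Its difference of 0.67 ± 0.20 (adjusted p = 0.00846) was 0.47 without the EMD50 bone (adjusted p = 0.0505), 0.44 without the RA bone (adjusted p = 0.0510) and -0.0014 without the 5 arrays, within 0.000539 to 0.994 over 27 alternatives.

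Of the liver-made members, Fgb was lowest relative to embryo liver (-6.53 ± 0.41, adjusted p = 7.91e-11), followed by Fga (-6.25 ± 0.44), F2 (-5.75 ± 0.23) and Fgg (-5.61 ± 0.57). Proc gave -5.27 ± 0.12, Serpina6 -5.18 ± 0.25, Plg -5.15 ± 0.30 and F10 -4.61 ± 0.11. These had adjusted p of 9.93e-08 or below. Pros1, by contrast, was at 9.57, 9.80, 9.48 and 9.91 in bone and did not differ from embryo liver past the threshold (-0.09 ± 0.13, adjusted p = 0.585), and neither did F13a1 on its brighter probe set (0.19 ± 0.12, adjusted p = 0.175), though its other probe set was higher in bone (0.66 ± 0.17, adjusted p = 0.00285).

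The liver-made members varied widely among the 4 bones, and not all in the same arrays. Fgg was at 10.53, 7.22, 6.89 and 10.01, Fga at 9.10, 6.29, 6.25 and 8.20, and Serpina1 at 10.98, 7.83, 8.77 and 10.75, so that the control and RA bones were high. Serpina3c was at 6.97, 6.74, 7.22 and 8.88, and Serpina6 at 6.55, 6.53, 6.50 and 8.01, so that the RA bone alone was high. Alb was at 13.60, 10.70, 9.44 and 13.60 and Afp at 12.34, 7.82, 7.66 and 7.58 in the same arrays. The control bone thus held Alb with Afp, and the RA bone Alb without Afp but with Serpina3c and Serpina6. The part of liver RNA in these values was not tested. Without the 5 arrays the bone difference was -6.96 for Fgg, -5.39 for Serpina1 and -5.63 for Serpina6.

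**Figure D4:**
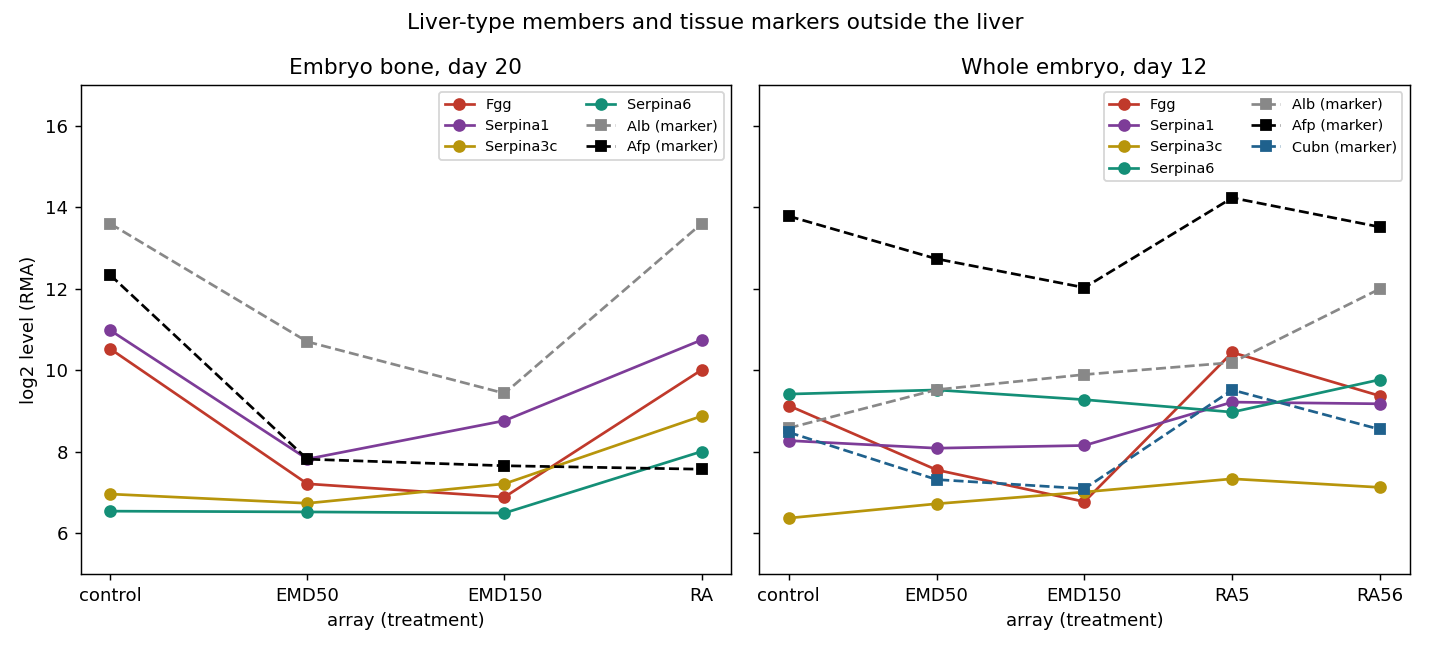
Log2 levels of 4 members (circles) and of tissue markers (squares) in the 4 embryo bone and 5 whole embryo arrays; lines only join values of the same gene. In bone Fgg and Serpina1 are high in the control and RA arrays with Alb, and in whole embryos Fgg is low in the EMD50 and EMD150 arrays with Cubn and Afp.

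In whole embryos of day 12 against maternal liver of the same day, 39 of 51 probe sets passed (76.5%), against 69.8% of all. Higher in the embryo were 4 (7.84%), against 35.5% of all, and lower were 35 (68.6%), against 34.3% of all. By gene, 34 of 42 passed, 4 higher and 30 lower. Serpinh1 was at 12.53, 12.30, 12.33, 12.32 and 12.51 against 9.0025 to 9.57 (3.04 ± 0.13, adjusted p = 8.30e-14). Its dim further probe set was flat, at 0.05, -0.01, -0.07 and 0.07 within control, EMD50, EMD150 and RA. Serpine2 was at 9.33, 8.95, 8.83, 8.58 and 9.15 against 7.83 to 8.24 (0.93 ± 0.15, adjusted p = 1.49e-05). F3 was at 6.66, 6.32, 6.23, 6.35 and 6.63 against 5.82 to 5.99 (0.50 ± 0.11, adjusted p = 0.000386).

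Tfpi was at 9.40, 8.39, 8.35, 9.55 and 9.45 in whole embryos against 7.94 to 8.08 (1.03 ± 0.20, adjusted p = 0.000176), but its further probe set went the opposite way (-0.67 ± 0.11, adjusted p = 1.40e-05). The largest differences down were in the clade A3 serpins Serpina3n (-7.05 ± 0.18, adjusted p = 3.96e-17), Serpina3l (-7.00 ± 0.29) and Serpina3c (-6.44 ± 0.35), and in F2 (-6.39 ± 0.20) and Fga (-6.26 ± 0.39). F10 gave -6.05 ± 0.10 and was flat over the 5 embryos, at 6.34 to 6.60. The 45 pathway genes gave 42 calls here, 7 higher and 35 lower, where 69.8% of all probe sets passed. In bone against embryo liver they gave 33, 6 higher and 27 lower, where 55.2% of all passed.

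Serpina6 in whole embryos was at 9.42, 9.52, 9.28, 8.98 and 9.77, above all bones, and -4.17 ± 0.22 relative to maternal liver (adjusted p = 1.64e-12). Some other liver-made members were nearer to maternal liver. Within control, EMD50, EMD150 and RA, Serpina4 gave -3.985, -3.18, -3.35 and -3.82, and Pros1 -2.54, -2.49, -2.28 and -2.20. The Serpina6 values did not follow those of Fgg over the same embryos, which were 9.14, 7.56, 6.78, 10.44 and 9.37. Nor did those of Serpina4, at 8.34, 8.90, 8.76, 8.90 and 8.30. Alb was at 8.59, 9.53, 9.90, 10.19 and 12.00. The visceral yolk sac, which surrounds the rodent embryo, is known to make many plasma proteins. Its marker Cubn was at 8.48, 7.32, 7.10, 9.52 and 8.55, which puts the 5 arrays in the same order as Fgg. Afp was at 13.78, 12.73, 12.03, 14.23 and 13.52, and the 5 measured yolk sac markers averaged 9.97, 8.46, 8.09, 10.64 and 9.63. Both put the control above the RA56 embryo, unlike Fgg. Fga, at 7.59, 6.39, 6.28, 8.71 and 8.20, had the order of Fgg. Plg was at 8.87, 7.20, 8.26, 9.40 and 9.10, with EMD150 above EMD50. Fgb, at 7.18, 7.15, 7.29, 8.93 and 7.99, was about the same in the control, EMD50 and EMD150 embryos. The part of yolk sac in the Fgg, Fga, Fgb and Plg values of these arrays was not tested.

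Treatment effects were estimated over the 5 tissue and day groups, each treated array against the control array of its own group. The treatments share the control arrays. For EMD 82571 no member passed at either dose. In limma's test of EMD50 against control, 0 of 51 passed, against 0% of all (an unadjusted p under 0.05 was reached by 1 member and by 253 of 15866), and for EMD150 0 of 51, against 0% of all (10 and 2925). The EMD50 member with the smallest p was Plg (-0.66 ± 0.26, adjusted p = 1), followed by Fga (-0.79 ± 0.39) and Serpina1 (-0.71 ± 0.36).

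For EMD150 the smallest p among members was that of Serpina3m (0.38 ± 0.11, adjusted p = 0.195). Its EMD150 array was above control in all 5 groups, by 0.65 in embryo liver, 0.33 and 0.39 in maternal liver of days 20 and 12, 0.10 in bone and 0.42 in whole embryo. A dim Fgb probe set (0.32 ± 0.11, adjusted p = 0.202) and Serpine3 (0.23 ± 0.08, adjusted p = 0.211) came next, and neither passed. Fgg gave -1.18 ± 0.51 (adjusted p = 0.247).

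Splitting the effect by side, 0 members passed for EMD 82571 (mean of both doses) in maternal liver, against 0% of all (0 and 123 with an unadjusted p under 0.05), and 0 in the conceptus, against 0% of all (11 and 1733). Conceptus here means embryo liver, bone and whole embryo together. The difference between the sides gave 0 members, against 0% of all (3 and 340). In the conceptus the smallest p belonged to Plg (-0.95 ± 0.24), Fgg (-1.82 ± 0.47) and Fga (-1.39 ± 0.36), each with an adjusted p of 0.451, and to F2 (-0.64 ± 0.19), also at 0.451. Plg passed without the EMD50 embryo liver (-1.20, adjusted p = 0.0436, within 0.0436 to 0.997 over 27 alternatives).

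These differences lay in bone and whole embryo, and were small in embryo liver. Fgg differed from control by -0.03 and -0.02 at the low and high dose in embryo liver, by -3.31 and -3.64 in bone, and by -1.58 and -2.36 in whole embryo. Plg differed by -0.07 and -0.41, by -1.66 and -1.32, and by -1.66 and -0.60 in the same order. The differences are set against a control bone that held Alb and Afp, and against a control whole embryo with higher yolk sac markers, as given above. The part of liver or yolk sac RNA in them was not tested, and it cannot be told apart from a treatment effect here. Without the control bone the Fgg estimate was -1.16 and that of Serpina1 moved from -0.98 to -0.34. Without the 5 arrays Fgg was at -0.99, Fgb at -0.03 and Serpina1 at -0.13.

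In embryo liver itself, the EMD150 array differed from control by -2.39 in Serpina3c and -1.51 in Serpina3l, and by 0.46 in Serpina3n and 0.65 in Serpina3m. The EMD50 array differed from control by -0.32, -0.17, -0.08 and 0.11 in the same 4 genes. Serpind1 was 0.26 and 0.56 above control at the low and high dose there. The EMD150 embryo liver was also below control in F10, F5, Klkb1, Plg, Proc, Pros1, Serpina11 and Serping1, by -0.41 to -0.66. It was below control in Serpinb1a (-0.80) as well, and above it in Serpina6 (0.46). Each of these is 1 array against 1, with no replicate check.

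RA raised 1 member over the 5 groups, Serpinb6a, a clade B serpin that inhibits serine proteases inside cells. That was 1 of 51 (1.96%), against 1.83% of all, and 1.96% of members against 1.78% of all were higher, so the share of members was near that of all probe sets. Serpinb6a was higher than its control in all 7 RA arrays: by 0.68 in embryo liver, 1.03 in bone, 0.23 in maternal liver of day 20, 0.53 and 0.53 in whole embryos and 0.41 and 0.04 in maternal liver of day 12. The EMD50 and EMD150 arrays differed from the same controls by 0.07 and 0.06 in embryo liver and 0.42 and -0.10 in bone. In maternal liver they differed by 0.07 and 0.26 on day 20 and -0.05 and 0.06 on day 12. Those of whole embryo differed by 0.08 and 0.16. The RA estimate was 0.51 ± 0.11 (adjusted p = 0.0306). The call was lost without any of the control arrays of bone, embryo liver, whole embryo or maternal liver of day 20, or the RA arrays of embryo liver, bone, maternal liver of day 20 or whole embryo (RA56). The estimates were then 0.42 to 0.57, with adjusted p of 0.0593 to 0.135.

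Without the 5 arrays it was 0.46 with an adjusted p of 0.212, the highest of 27 alternatives. Without the control maternal liver of day 12, 2 members passed, Serpinb6a and Serpind1. Serpind1 (0.58 ± 0.17, adjusted p = 0.0975) and Tfpi (0.45 ± 0.19, adjusted p = 0.321) had the next smallest p in the estimate over all groups.

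In the conceptus, RA raised Serpinb6a (0.71 ± 0.13, adjusted p = 0.0118) and Serpind1 (0.94 ± 0.20, adjusted p = 0.0242). These were 2 of 51 probe sets (3.92%), against 1.9% of all, and both were higher, against 1.81% of all. Serpind1 was above its control by 0.73 in embryo liver, 0.79 in bone and 1.74 and 0.60 in whole embryos. The EMD50 and EMD150 arrays were also above these controls. They were higher by 0.26 and 0.56 in embryo liver, 0.12 and 0.25 in bone and 0.25 and 0.40 in whole embryo. The RA bone and the RA56 whole embryo are among the 5 arrays that stood apart, and the part of other tissue in Serpind1 was not tested. Serpinb6a lost its call without the control bone (0.64, adjusted p = 0.115) or the control whole embryo (0.76, adjusted p = 0.055), and without the 5 arrays (0.60, adjusted p = 0.0734). Serpind1 lost it without the control bone (1.003, adjusted p = 0.115), the control embryo liver (0.94, adjusted p = 0.0806), the control whole embryo (0.87, adjusted p = 0.121) or the RA bone (0.97, adjusted p = 0.0518). The adjusted p ran from 0.00160 to 0.115 and from 0.00153 to 0.121 over 27 alternatives for the 2 genes.

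In maternal liver RA moved no member past the threshold, against 0.0756% of all (in limma's test 0 members and 499 of 15866 reached an unadjusted p under 0.05). The difference between conceptus and maternal liver gave 0 members, against 0% of all (2 and 465). For Serpind1 that difference was 0.88 ± 0.31 and for Serpinb6a 0.47 ± 0.20, both with an adjusted p of 1, so a difference between the sides was not shown. The smallest p in maternal liver belonged to Serpina4 (0.41 ± 0.21, adjusted p = 1).

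Tfpi was 0.83 and 1.11 above control in RA embryo liver and bone and 0.15 and 0.05 above in whole embryos. Over the conceptus it gave 0.67 ± 0.23 (adjusted p = 0.182), while its further probe set gave -0.03 ± 0.13. In bone the EMD50 and EMD150 arrays were 0.90 and 0.02 above control in Tfpi. The RA maternal livers differed from control by 0.53 on day 20 and by -0.10 and -0.13 on day 12. In the RA bone Serpina3c, Serpina3l and Serpina3n were 1.91, 1.79 and 1.04 above control, the same array that held Alb without Afp. Serpina7 in maternal liver of day 12 differed from control by -1.62 and -0.76 in the RA arrays and by 0.91 in the EMD50 array. On day 20 it differed by 0.77 with RA and -1.29 with EMD150, so the RA differences had opposite signs on the 2 days.

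**Figure D5:**
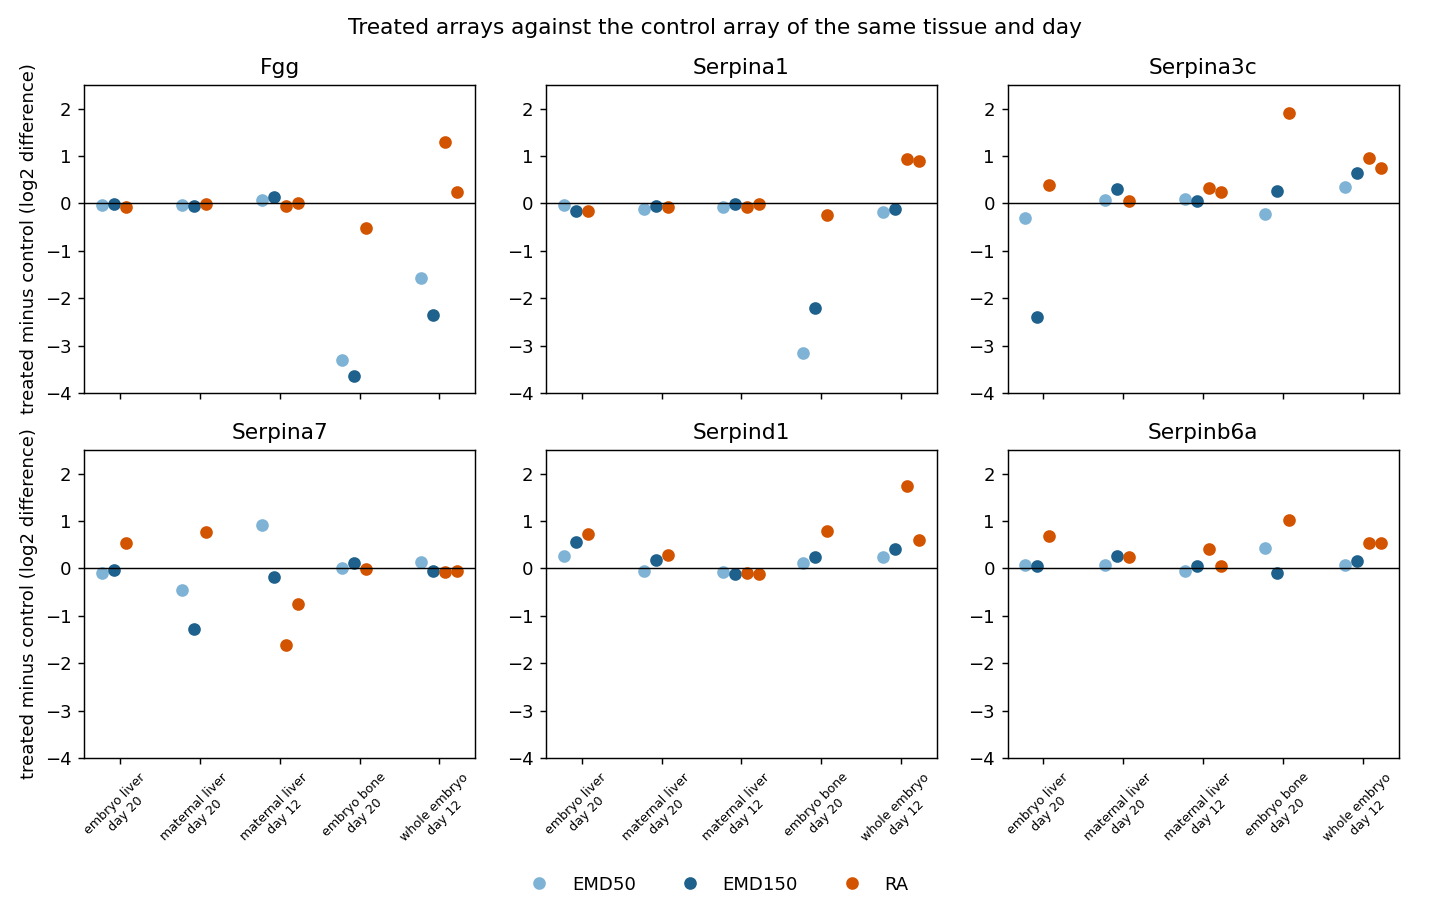
Treated array minus control array of the same tissue and day, as log2 difference, for 6 genes; each point is 1 array. Fgg and Serpina1 are close to control in all livers and low in the EMD50 and EMD150 bones, Serpina3c is at -2.39 in the EMD150 embryo liver, and Serpinb6a is above control in all 7 RA arrays.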

How the data were processed

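The authors deposited log2 levels per probe set; the submitters' processing notes name RMA, with no version. RMA corrects background, quantile normalizes and summarises probes. Per the labels' protocols, RNA was transcribed with an oligo dT primer and labelled with biotin. The table holds 15923 lines, of which 57 are array controls. No filter was set on the remaining 15866. The number of arrays limits the precision.

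Tests used R 4.3.3 and limma 3.58.1, with eBayes and an intensity trend. The 13 liver arrays, with tissue and day group plus treatment, gave both liver comparisons (7 residual degrees of freedom). All 22 arrays gave bone, whole embryo and treatments (14), and a model with separate treatment effects in dam and conceptus the rest (11). Tests were two-sided, and p-values were adjusted by Benjamini-Hochberg over all probe sets in each of 13 comparisons. ± after a difference is its SE. The scripts were tested on simulated data.

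Gene symbols are those of the array annotation; the members, roles and lists were chosen with earlier results of these data known. Values on every array are given for up to 10 called genes per direction in liver comparisons, up to 5 in others (or the 3 smallest p where fewer than 3 passed), and for the main factors. Pathway genes named are the 3 largest called differences per direction and examples chosen after their values were seen. Alternatives changed the trend, filter, normalization, array weights, arrays in the fit, and left out each array. A block for the RA5 and RA56 codes was added after seeing the data.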

Additional observations from a re-analysis of the deposited data

How the results depend on the processing

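Counts of members past the threshold stayed within 1.5 times of the reported ones under every alternative for embryo against maternal liver (23 to 30), bone (29 to 43) and whole embryo (33 to 44), and were 0 throughout for both EMD 82571 doses, for either treatment in maternal liver and for both differences between sides. For day 20 against day 12 the count was 4 with all 22 arrays in the fit (F10, Serpina11, Serpinh1 and the further Serpinb9 probe set, while the representative one had an adjusted p of 0.0683) and 3 to 11 with single arrays left out. For retinoic acid over all groups it was 0 without the 5 arrays that stood apart and 0 to 2 with single arrays left out. For EMD 82571 in the conceptus it was 0 to 1 with single arrays left out. For retinoic acid in the conceptus it was 4 with array weights (Serpina6, Serpinb6a, Serpind1 and Tfpi), 1 without the 5 arrays (Serpind1) and 0 to 2 with single arrays left out. The bone difference of Serpinb2 turned to -0.0014 without the 5 arrays. With all 22 arrays in the fit the fetal liver calls of Plg, Serpine2, Vwf and Serpinb2 were lost. The cause was not tested for any of these, except that leaving out arrays leaves fewer samples. The alternative without the 5 arrays was chosen with earlier results known. Signals near the top of the range (Fgg, Serpina1) and dim probe sets limit what can be seen. The codes RA5 and RA56 occur in whole embryo and maternal liver of day 12, and whether they mark a shared dam is not stated. With a replicate block for these codes, chosen after seeing the data, the whole embryo count was 41 against 39. The RA5 minus RA56 differences of both tissues correlated at -0.14 over 15866 probe sets. Different tissues need not move together, so this cannot tell whether samples with the same code share a dam. With the codes crossed, also chosen after seeing the data, the count was 39. The other groups hold 1 sample per treatment, with no such codes to pair.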
